A study of Mus musculus with 20 samples.

Results

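The small-subunit ribosomal protein genes encode the proteins that, with 18S ribosomal RNA, make up the small (40S) subunit of the ribosome. Members were chosen by name alone: Rpsa and every mouse gene called Rps followed by a number, with or without a paralogue letter such as the a of Rps15a or the x of Rps4x. In the GENCODE mouse annotation (release M21, GRCm38) 33 gene names match, of which 28 have introns in the deposited tables, with 113 introns of the 68794 introns and 28 of the 8392 genes tabulated. The other 5 matching names, among them Rps18, Rps26, Rps4l and Rps12l1, were not analysed here. For 25 of the 28 genes every intron of the tabulated transcript was listed; Rps10 was represented by intron 4 alone, Rps2 lacked intron 1 and Rps24 lacked intron 1. The genes Fau, Rps3a1 and Rack1 also encode small-subunit proteins but fall outside the naming rule, and are given only as a related list.

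The data are long reads of nascent RNA from wild-type murine erythroleukemia (MEL) cells, a virus-transformed mouse line of red cell precursors that resumes erythroid maturation in dimethyl sulfoxide (DMSO). Chromatin-bound RNA was stripped of polyadenylated and ribosomal RNA before sequencing. The uninduced group, with no DMSO, and the induced group, kept in 2% DMSO for 5 days, each held 4 runs, from 2 numbered replicates on 2 PacBio instruments. The tables give 1 line per intron and condition, so each condition is 1 pool, no spread between replicates can be computed, and every test compares 2 pools of reads rather than 2 conditions.

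Ribosomal protein genes are among the most heavily transcribed genes of growing cells, and each ribosome takes up 1 copy of nearly every one of the proteins. Their messages belong to the terminal oligopyrimidine class, whose translation is tuned to growth signals, and several of the genes carry a small nucleolar RNA (snoRNA) inside an intron that is released only after splicing. Red cell precursors depend strongly on these genes: loss of 1 working copy of RPS19, RPS24 or several others causes Diamond-Blackfan anemia in people, and loss of 1 copy of RPS14 contributes to the anemia of the 5q- syndrome. Co-transcriptional splicing efficiency (coSE) is used here for the spliced reads of an intron divided by its spliced plus unspliced reads, so that 1 means that no unspliced read was seen.

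The splice sites are printed as the deposited table gives them, for the introns on which the results below turn. A 5′ site runs over 9 bases, the last of the exon and the first of the intron, and a 3′ site over 23 bases, the last of the intron and the first of the next exon. Capitals mark the first 2 intron bases of a 5′ site and the last 2 intron bases of a 3′ site. The first set holds introns whose coSE fell past the threshold on induction; the sites of Rps14 are not printed.
Rps28 intron 1, chr17:33824347-33824433, minus strand, 5′ site: aggGTgagg
Rps28 intron 1, 3′ site: ctttcccttatttcctgtAGgta
Rps28 intron 2, chr17:33823331-33824298, minus strand, 5′ site: cagGTgagt
Rps28 intron 2, 3′ site: ctcttgtattgggcttgtAGgtg
Rps28 intron 3, chr17:33823117-33823196, minus strand, 5′ site: ctgGTgggt
Rps28 intron 3, 3′ site: atgcttgggtctgtttacAGggt
Rps27 intron 2, chr3:90213045-90213192, minus strand, 5′ site: cagGTaagg
Rps27 intron 2, 3′ site: ctctttttttttcttcccAGgat
Rps27 intron 3, chr3:90212754-90212933, minus strand, 5′ site: aagGTgagt
Rps27 intron 3, 3′ site: tttgcatctttttcttccAGgat
Rps9 intron 1, chr7:3704065-3704326, plus strand, 5′ site: tagGTgagt
Rps9 intron 1, 3′ site: aacgacactttactgcgcAGgcg
Rps9 intron 2, chr7:3704449-3704645, plus strand, 5′ site: ttgGTgagt
Rps9 intron 2, 3′ site: ctcctcccaaccacgtgcAGgag
Rps3 intron 4, chr7:99480064-99481696, minus strand, 5′ site: aagGTgagt
Rps3 intron 4, 3′ site: atgaatcttgtcttccaaAGggc
Rps12 intron 5, chr10:23785274-23785575, minus strand, 5′ site: aagGTaagt
Rps12 intron 5, 3′ site: tcgcatttaatttttttaAGgac

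The second set shows the members with the weakest deposited score at each end and the 1 intron that does not begin with GT.
Rps16 intron 2, chr7:28351094-28352176, plus strand, 5′ site: aagGTgttg
Rps25 intron 2, chr9:44408084-44408685, plus strand, 3′ site: tcatttgttttgatgagcAGaag
Rps27a intron 3, chr11:29546789-29547205, minus strand, 5′ site: aagGCaagt

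The 5′ site of Rps16 intron 2 had the lowest score of the members, 1.36, and the intron was spliced in 110 of 111 uninduced and 17 of 18 induced reads. The 3′ site of Rps25 intron 2 had the lowest score, 2.92, and the intron was spliced in 190 of 191 uninduced and 29 of 29 induced reads. The GC site of Rps27a intron 3, which scored 3.24, belonged to an intron spliced in 142 of 156 uninduced and 54 of 58 induced reads. By contrast Rps12 intron 5 had a 5′ score of 11.0, with a 3′ score of 7.26 under the member median of 8.86. It was spliced in 36 of 52 uninduced and 2 of 14 induced reads, the lowest induced coSE of any member with at least 10 reads.

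The pools held 416379 uninduced and 279371 induced observations, a read being counted once at every intron it covers. The erythroid marker genes chosen for this work, 11 in number, summed to 1888 reads per 1000000 observations of the pool (RPM) before induction, where 8 of the 11 had reads and Tal1, Slc4a1 and Epb42 had none, and to 32011 RPM in the induced pool, where all 11 had reads. Of 4 myeloid markers only Spi1 had reads, 9 in the uninduced pool, and the 3 lymphoid markers had none in either.

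Nascent reads of the family were scarcer in the induced pool. Small-subunit introns took up 18260 observations, or 4.39% of the uninduced pool, against 5428, or 1.94% of the induced pool. The large-subunit genes went from 6.82% to 2.30%. In RPM, 26 of the 28 genes were lower in the induced pool, and the median ratio of uninduced to induced was 2.76. For comparison, of the 2016 genes of the whole table with at least 50 uninduced observations, 1270 were lower in the induced pool, with a median ratio of 1.29; of the 27 members that met the same minimum, 26 were lower, with a median ratio of 2.78. These shares add up to a fixed total, so gains elsewhere, such as those of the erythroid markers, lower every other share. Fewer transcribing cells and fewer nascent molecules per cell cannot be told apart in a bulk sample. With 1 pool per condition the difference was not tested.

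The 3 deepest members were the same in both pools and in the same order. Rps19, the gene most often mutated in Diamond-Blackfan anemia, had 2763 uninduced observations, the fourth-deepest gene of the table, and 6636 RPM against 5111 RPM induced, a ratio of 1.30. Rps6, whose protein is phosphorylated by S6 kinase downstream of mTOR, had 4916 and 2738 RPM. Rps3, which lines the mRNA entry channel and is also known as a DNA repair factor, had 4150 and 1965 RPM. Rps14 of the platform had 3305 and 523 RPM, a ratio of 6.32, and Rps7 had 3144 and 1672 RPM, a ratio of 1.88. These 5 genes had the most uninduced reads, and Rps14 had the largest ratio of them; with 146 induced observations it stood below Rps27a (270), Rps9 (251) and Rps27 (196) in the induced pool.

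Rps24, another Diamond-Blackfan anemia gene, had a ratio close to that of Rps14, with 389 RPM before and 57.3 RPM after induction (ratio 6.79). Its induced value rests on 16 observations, with a Poisson 95% interval of 32.7 to 93.0 RPM. Rps13 was among the 2 genes that were not lower, at 250 and 286 RPM, and the Poisson 95% intervals of its counts overlap (204 to 303 and 227 to 356 RPM). The other was Rps10, with 3 and 4 observations. Besides Rps10, the members with the fewest uninduced reads were Rps27l, a paralogue of Rps27 known as a p53 target, with 66 and 30 observations, and Rps2, at the mRNA entry channel, with 78 and 9.

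**Figure D1:**
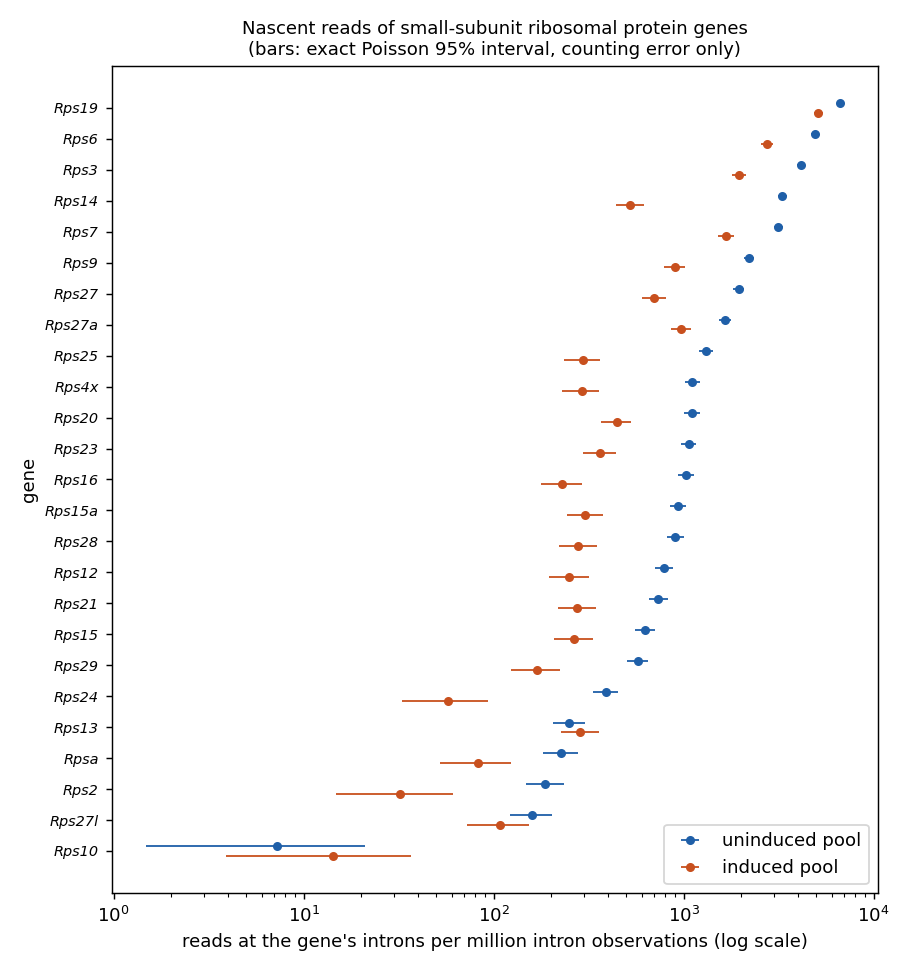
Reads at the introns of each small-subunit ribosomal protein gene in reads per 1000000 intron observations of the pool (RPM, log scale), uninduced in blue and induced in orange, genes ordered by the uninduced value; bars are exact Poisson 95% intervals and cover counting error only. Rps13 and Rps10 are the 2 genes whose orange point lies to the right of the blue one, and among the 5 deepest genes the gap is widest for Rps14 and narrowest for Rps19. The plot shows 25 of the 28 genes.

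Splicing of the family was near complete before induction. Over the 109 introns of 27 genes with at least 10 uninduced reads, the median coSE was 0.968 (quartiles 0.921 and 0.989, median depth 123 reads), and with all reads added together 0.968 (Wilson 95% interval 0.965 to 0.970). In the induced pool the median was 0.933 (quartiles 0.854 and 0.988) over 95 introns of 24 genes with a median of 29 reads, and all reads together gave 0.931 (interval 0.924 to 0.938). Over all introns of the table at the same minimum the medians were 0.933 uninduced and 0.947 induced. The order of the induced medians turned with the minimum: at 20 reads the family stood at 0.955 and all introns at 0.950, against 0.972 and 0.952 uninduced. The induced mean over introns was higher in the family, 0.884 against 0.865. With all reads of the table added together coSE was 0.861 in both pools, under the family's summed values. A coSE under 0.8 was found at 5 of 109 member introns uninduced (4.59%) and at 17 of 95 induced (17.9%), against 22.8% and 21.8% of all introns. Rps19 is deep enough to carry the summed value: without it the family's coSE was 0.963 uninduced and 0.912 induced. Intervals and detection limits here cover counting error only, since the reads were amplified by PCR.

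Within the family, most genes next to each other in rank could not be ordered by counting error, while genes far apart could. Uninduced, the interval of Rps6 (0.988 to 0.996) lay clear of that of Rps12 (0.794 to 0.874). Of the 25 neighbouring pairs among 26 genes ranked by uninduced coSE, 24 had overlapping Wilson intervals, and in the induced ranking all 25 did. Near the top of the uninduced ranking stood Rps29 (0.996 uninduced and 0.957 induced), Rps6 (0.993 and 0.993) and Rps19 (0.992 and 0.986). Rps29 stood lower in the induced ranking. At the bottom stood Rpsa, the laminin receptor protein of the small subunit, at 0.649 (interval 0.548 to 0.738) uninduced and 0.304 (interval 0.156 to 0.509) induced, on 94 and 23 observations. Rpsa was the 1 gene set apart from its upper neighbour, Rps12, in the uninduced ranking. Rps2, left out of the ranking for its 9 induced observations, had an uninduced coSE of 0.756 (interval 0.651 to 0.838).

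**Figure D2:**
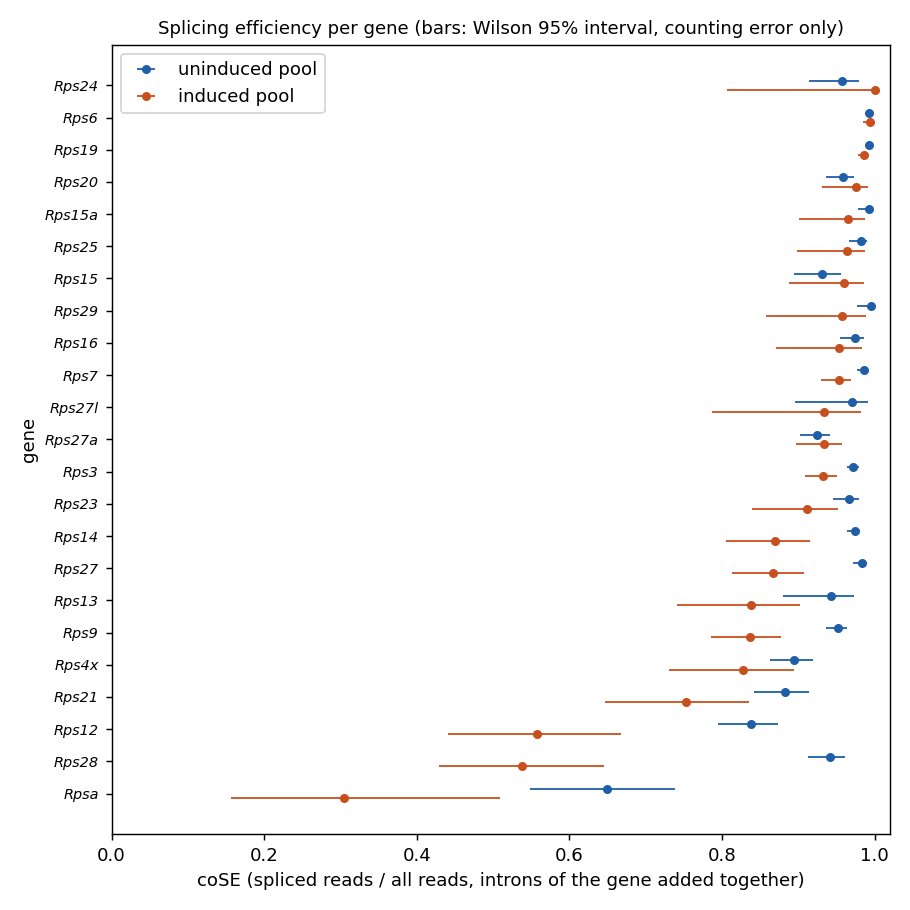
Splicing efficiency of each gene with the reads of its introns added together, for 23 of the 26 genes with at least 10 observations in both pools, ordered by the induced value (uninduced blue, induced orange; bars are Wilson 95% intervals for counting error). Most blue points lie above 0.9, while the orange points of Rpsa, Rps28 and Rps12 lie under 0.6.

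The poorly spliced end of the family rested on few reads. In the uninduced pool the 5 lowest introns with at least 10 reads were Rpsa intron 2 (4 of 18 reads spliced), Rps2 intron 4 (4 of 13), Rpsa intron 1 (5 of 10), Rpsa intron 4 (11 of 16) and Rps12 intron 5 (36 of 52). After induction they were Rps12 intron 5 (2 of 14), Rps28 intron 3 (3 of 19), Rps12 intron 4 (7 of 17), Rps12 intron 3 (7 of 13) and Rps21 intron 5 (9 of 15). Rps12 and Rpsa thus supplied 4 of the 5 uninduced and 3 of the 5 induced entries. At the other end, Rps7 intron 2 was spliced in 282 of 282 uninduced reads (unspliced share of up to 1.06%), followed by Rps25 intron 1 (183 of 183) and Rps29 intron 1 (123 of 123). In the induced pool the deepest such introns were Rps6 intron 1 (210 of 210, up to 1.43%), Rps19 intron 5 (186 of 186) and Rps20 intron 2 (45 of 45). No unspliced read was seen in either pool at 5 introns. Rps25 intron 1 had 183 uninduced and 27 induced reads (an induced unspliced share of up to 11.1%), Rps29 intron 1 had 123 and 26 (up to 11.5%) and Rps13 intron 1 had 23 and 21 (up to 14.3%). For Rps27l intron 3, with 17 and 8 reads, and Rps2 intron 2, with 17 and 1, the depth sets almost no induced limit.

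A pair of tabulated introns were not spliced in any read. Rps10 intron 4, which 1 of 4 annotated transcripts spanning it contains, had 0 of 3 uninduced and 0 of 4 induced reads spliced. Intron 1 of the tabulated Rps23 transcript, a noncoding one, had 0 of 6 and 0 of 3 reads spliced and is contained in 1 of the 2 transcripts spanning it. Of the 113 introns, 58 are absent from at least 1 annotated transcript that spans them, and unspliced reads there may belong to such a transcript, which was not tested. Ribosomal protein genes also have many processed pseudogenes, and how the authors treated reads that fit more than 1 place is not given in the sources used here.

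The main comparison asked whether splicing of the same introns differed before and after induction. Among the 95 small-subunit introns with at least 10 reads in both pools, coSE fell at 11 introns of 7 genes, among them Rps28, Rps27, Rps9, Rps3, Rps12 and Rps14, and rose at none (Fisher's exact test of spliced against unspliced reads, two-sided, with Benjamini-Hochberg adjustment over all 4403 introns tested, threshold 0.05); a chi-square test also gave 0 rises. Of all introns tested, 1.25% were called lower and 0.363% higher, against 11.6% and 0 here. An unadjusted p under 0.05 was found at 20 of the 95 member introns, all lower in the induced pool. Of all 4403 introns tested 351 had such a p, 193 of them lower. By direction alone, 65 of the 95 were lower, 27 higher and 3 equal, with a median difference of -0.0346. Of all tested introns 1534 were lower, 1879 higher and 990 equal, with a median difference of 0.

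Depth differs between the family and the table and bears on how often a test can call. Member introns had medians of 147 uninduced and 29 induced reads, all tested introns 21 and 17. With at least 20 reads in both pools, where the medians were 184 and 45 for the members and 43 and 31 for the table, 9 of 65 members (13.8%) were called lower against 4.14% of all 1330 introns at that depth, of which 0.977% were called higher. At that minimum 42 members were lower, 20 higher and 3 equal, with a median difference of -0.0193, against 539, 604 and 187 in the table, with a median difference of 0. The induced pool was the shallower at each of the 11 introns, with at most 105 reads.

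**Figure D3:**
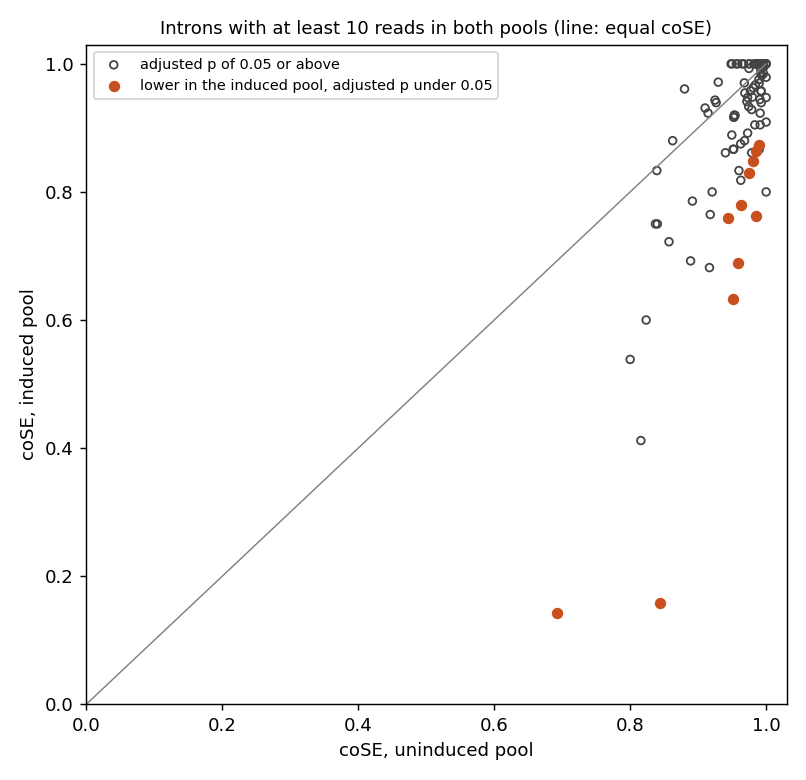
coSE of the 95 small-subunit introns with at least 10 reads in both pools, uninduced on the horizontal and induced on the vertical axis; the line marks equal values and filled orange points are the 11 introns with an adjusted p under 0.05. All filled points lie below the line, and 65 of the 95 introns do.

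Rps28, a small protein at the mRNA exit site, fell at all 3 of its introns. Intron 1, of 87 nt between coding exons, had 154 of 162 reads spliced before induction (coSE 0.951, interval 0.906 to 0.975) and 19 of 30 after it (coSE 0.633, interval 0.455 to 0.781; Fisher's exact test, adjusted p 0.00181). Intron 2, of 968 nt, was spliced in 162 of 169 and 20 of 29 reads, 0.959 and 0.690 (adjusted p 0.00662). Intron 3, in the 3′ UTR and contained in 1 of 7 annotated transcripts spanning it, was spliced in 38 of 45 and 3 of 19 reads, 0.844 and 0.158 (adjusted p 0.000140). The gene as a whole went from 0.941 on 376 observations to 0.538 on 78, the largest gap of any member with at least 50 observations in both pools. Introns of 1 gene are often covered by the same reads, so these 3 calls are not independent of each other.

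Rps27, a zinc-finger protein and a Diamond-Blackfan anemia gene, fell at introns 2 and 3 of its 3. Intron 2 (148 nt) was spliced in 282 of 285 uninduced and 62 of 71 induced reads, 0.989 and 0.873 (adjusted p 0.00548). Intron 3 (180 nt) was spliced in 238 of 247 and 46 of 59 reads, 0.964 and 0.780 (adjusted p 0.00323). Intron 1 was spliced in 278 of 280 and 62 of 66 reads, with an adjusted p of 0.333. All 3 lie between coding exons, and all 3 had a lower share of spliced reads in the induced pool.

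Rps9, a protein of the mRNA entry site with a part in decoding fidelity, fell at its first 2 introns. Intron 1 lies in the 5′ UTR and was spliced in 255 of 270 uninduced and 60 of 79 induced reads, 0.944 and 0.759 (adjusted p 0.00194). Intron 2 lies between coding exons and had 269 of 276 and 63 of 76 reads spliced, 0.975 and 0.829 (adjusted p 0.00323). Intron 3 was spliced in 226 of 238 and 56 of 63 reads, and intron 4 in 126 of 136 and 31 of 33 reads, with adjusted p-values of 0.807 and 1. The last intron was the 1 intron of the gene with a higher induced coSE, 0.939 against 0.926.

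In Rps3 a single intron stood out among 6. Intron 4, the longest of the gene at 1633 nt, was spliced in 301 of 307 uninduced and 89 of 105 induced reads, 0.980 and 0.848 (adjusted p 0.000716). Its neighbours were spliced in 103 of 107 (intron 3) and 80 of 87 (intron 5) induced reads, with adjusted p-values of 1. The other introns of Rps3 had 3 or 4 unspliced induced reads each, and intron 5 had 7, against 16 at intron 4. Intron 4 is contained in 3 of 5 annotated transcripts that span it.

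Rps14 and Rps12 had a call at a single intron each. Rps14 intron 2, of 378 nt in the coding region, had 407 of 413 and 38 of 44 reads spliced, 0.985 and 0.864 (adjusted p 0.0277). Its other introns lay at induced coSE values of 0.867, 0.861 and 0.905 with adjusted p-values of 0.514, 0.149 and 0.768, so the introns of Rps14 had similar induced levels and differed in their test. Rps12 intron 5 fell from 0.692 (36 of 52) to 0.143 (2 of 14), with an adjusted p of 0.0324; it hosts Snora33. This call did not pass when uninduced reads were thinned to the induced total (difference -0.490 against -0.549, adjusted p 0.133). Without any minimum of reads, which brings 42074 introns into the adjustment, the calls of Rps14 (0.238), Rps12 (0.276) and Rps28 intron 2 (0.0598) were among the 4 that did not pass. Among introns found in every annotated transcript that spans them, 48 members could be tested and the 3 calls were Rps14 intron 2, Rps27 intron 2 and Rps9 intron 2, against 27 lower calls among all 2806 such introns.

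**Figure D4:**
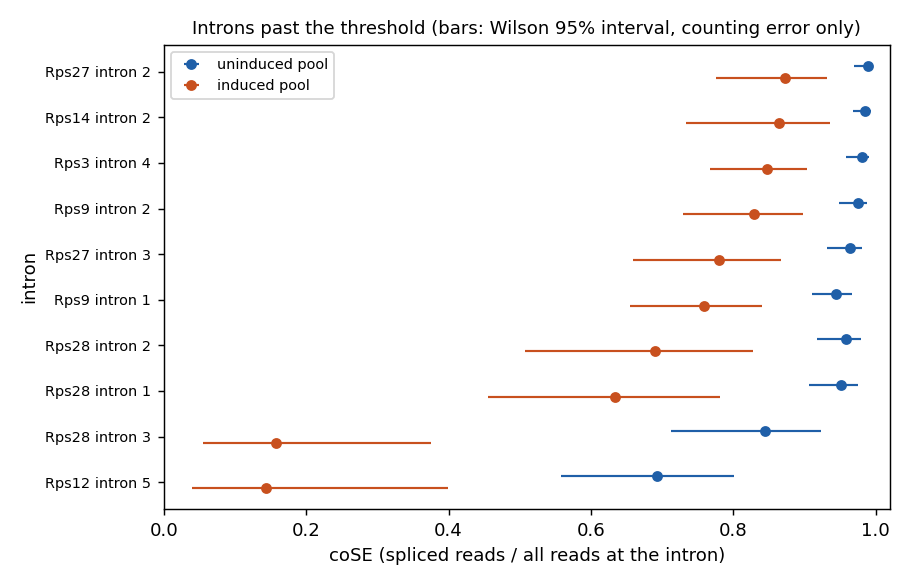
coSE of 10 of the 11 small-subunit introns past the threshold, uninduced in blue and induced in orange, with Wilson 95% intervals for counting error, ordered by the induced value. Rps12 intron 5 and Rps28 intron 3 lie under 0.2 in the induced pool, and the other 8 lie between 0.633 and 0.873.

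Rps12, a small-subunit protein studied for its role in cell competition, had a graded coSE along the gene. From intron 1 to intron 5 the uninduced values were 0.964, 0.921, 0.800, 0.816 and 0.692, on 52 to 80 reads. After induction they were 1, 0.800, 0.538, 0.412 and 0.143, on 11 to 17 reads. The 2 upstream introns were thus the better spliced in both pools, and the gap between the pools was largest at the last 2. Introns 3, 4 and 5 each host a snoRNA (Gm23130, Snord100 and Snora33), and only intron 5 passed the threshold (intron 4 had an adjusted p of 0.0791, intron 3 of 0.746).

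Several deep members gave no call. The 5 introns of Rps19 had 393 to 641 uninduced and 186 to 337 induced reads and coSE values from 0.975 to 1, with adjusted p-values of at least 0.860. The 4 introns of Rps6 ranged from 0.975 to 0.997 uninduced and from 0.985 to 1 induced. Rps27a, made as a fusion of ubiquitin with a ribosomal protein, had coSE values of 0.880 to 0.953 uninduced and 0.917 to 0.961 induced at its 5 introns, and its intron 1 was spliced in 110 of 125 and 49 of 51 reads (adjusted p 1). Rps7, whose protein can bind Mdm2, was lower in the induced pool at all 6 introns, by at most 0.0791, and none passed (adjusted p from 0.553). Rps21 and Rps4x, the X-linked member, were shallower, with 12 to 18 induced reads per intron in Rps21 and 9 to 16 in Rps4x. Their levels were low in both pools, 0.882 and 0.753 for Rps21 and 0.894 and 0.827 for Rps4x. No tested intron of either passed, and at these depths only large differences could. Rps21 intron 5 went from 42 of 51 to 9 of 15 reads spliced (adjusted p 0.807).

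Further genes were Rps13, Rps15, Rps15a, Rps16, Rps20, Rps23, Rps25, Rps27l and Rps29, none with a call. Their largest difference was at Rps13 intron 3, which hosts Snord14a and went from 22 of 24 to 15 of 22 reads spliced (adjusted p 0.721). Of the 113 introns 18 had under 10 reads in the induced pool and were not tested, among them every listed intron of Rpsa, Rps2, Rps24 and Rps10.

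Median levels were highest at first introns and lowest at last ones, in the family as over all genes. In the uninduced pool the median coSE was 0.984 over 24 first introns, 0.972 over 59 internal ones and 0.955 over 26 last ones. After induction the medians were 0.970, 0.923 and 0.911. Over all genes the medians were 0.959, 0.929 and 0.923 uninduced and 1, 0.941 and 0.909 induced. In 17 of the 24 member genes with at least 10 uninduced reads at both ends the last intron had the lower coSE, in 7 the first; over all 484 such genes the last was lower in 235, the first in 169, and 80 were equal. In the induced pool the last was lower in 10 of 19 members (52.6%), higher in 7 and equal in 2, near the share over all genes (100 of 197, 50.8%). These are descriptions, since both introns of a gene share reads.

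Splicing intermediates, reads that end at the last base of an exon, left by the first step of splicing, were scarcer in the family than over all introns and took their highest share at last introns. They made up 140 of 17192 intermediates plus spliced reads uninduced, a share (called NIC by the authors) of 0.814% (interval 0.691% to 0.960%), and 50 of 4486 induced, 1.11% (interval 0.846% to 1.47%). Over all introns of that table the shares were 2.71% and 4.35%, and over the large-subunit genes 0.876% and 1.64%. By position, first introns of the family had 1 intermediate among 4170 reads uninduced (0.0240%), internal introns 51 among 9891 (0.516%) and last introns 88 among 3131 (2.81%, interval 2.29% to 3.45%). Induced, first introns had 0 of 1098, internal ones 19 of 2732 (0.695%) and last ones 31 of 656 (4.73%, interval 3.35% to 6.63%). Over all genes first introns were also lowest, at 0.332% uninduced and 0.422% induced. Internal introns of all genes stood at 3.38% and 4.98%, higher than the family's in both pools, and last ones at 2.70% and 8.47%.

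The last intron of Rps14 held much of this signal. It had 42 intermediates beside 230 spliced reads in the uninduced pool, a NIC of 0.154 (interval 0.116 to 0.202), and 10 beside 18 in the induced pool, a NIC of 0.357 (interval 0.207 to 0.542), while its coSE was 0.983 and 0.905. Without Rps14, a split by position chosen after seeing the data, the last introns of the family stood at 1.61% uninduced and 3.34% induced, still above its internal introns at 0.513% and 0.676%, with 46 uninduced intermediates at last and 47 at internal introns, and the family's share over all positions in the uninduced pool was 0.594%. The other introns with at least 5 intermediates in a pool were Rps20 intron 3 (7 among 136 uninduced reads, 3 among 32 induced), Rps15a intron 3 (6 among 88, 1 among 13), Rps3 intron 3 (7 among 314, 1 among 95) and Rps3 intron 6 (6 among 207, 6 among 51). Rps14 intron 4, Rps20 intron 3 and Rps3 intron 6 are the last introns of their transcripts.

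**Figure D5:**
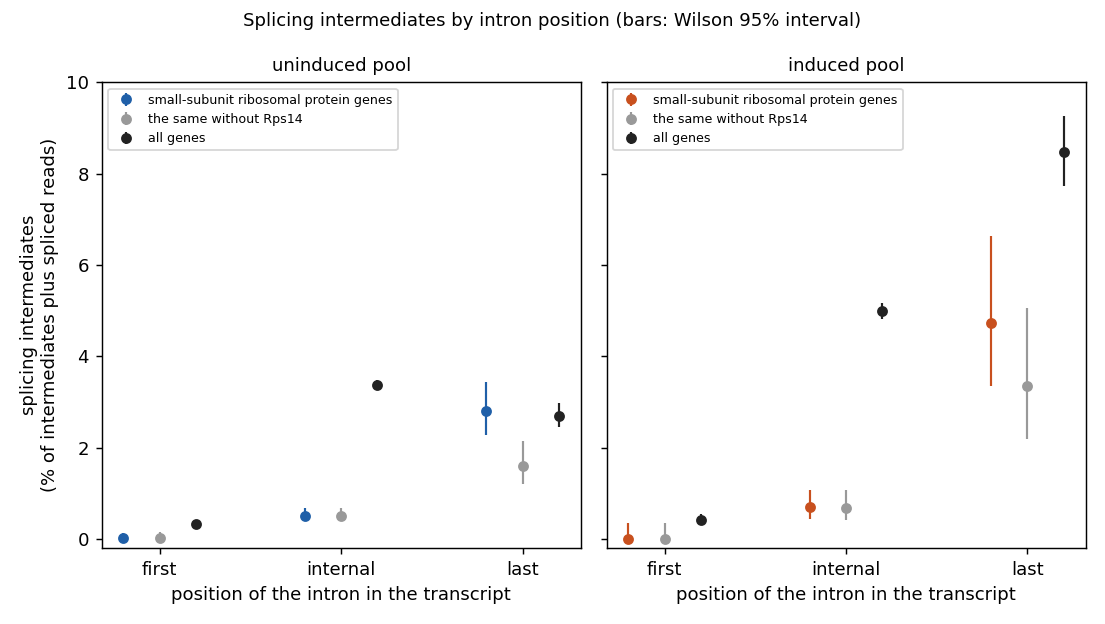
Splicing intermediates as a percent of intermediates plus spliced reads at first, internal and last introns, uninduced on the left and induced on the right, for the small-subunit genes (coloured), the same without Rps14 (grey) and all genes of the table (black); bars are Wilson 95% intervals for counting error. The family's share is highest at last introns in both panels, with or without Rps14, and its internal introns lie below those of all genes.

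No member passed the test for a change in NIC. Of 79 introns in both conditions of the second table, 0 were called in either direction by Fisher's exact test with adjustment over 2039 introns, and 0 by the chi-square test; 2 had an unadjusted p under 0.05, Rps14 intron 4 (0.0149, adjusted p 1) and Rps3 intron 6 (0.0159, adjusted p 1). Of all introns tested, 0.0981% were called higher. By direction, 19 member introns had a higher NIC after induction, 17 a lower one and 43 an equal one. Those 43 had 0 intermediates in both pools and could give no call, so the test bears on 36 introns. Of the 79, 6 had under 10 induced reads, and at the median induced depth of 32 reads small changes were not detectable.

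Member introns are short and most sites follow the common pattern. Their length ran from 77 to 4766 nt with a median of 371 nt, against 1226 nt for all introns of the table, and 101 of 113 were at most 1000 nt long (89.4% against 44.2%). Against all introns of that length, whose median coSE was 0.862 uninduced and 0.875 induced, the members of that length had 0.963 and 0.926. The table lists splice sites for 103 members: 102 of the introns begin with GT and 103 end in AG, and 91 (88.3%) follow an exon that ends in G, against 80.2% of all introns with a sequence. Intron starts GTGAG and GTAAG were found at 38 and 27 members (36.9% and 26.2%), against 26.3% and 29.5% in the table. Median scores were 9.16 for the 5′ and 8.86 for the 3′ site, against 8.78 and 8.70. Median GC content was 48.3% against 43.9%.

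The 11 introns that fell had a higher median 5′ score and a lower median 3′ score than the other tested members, and neither difference was tested. They had 5′ scores of 6.29 to 11.1 with a median of 10.1 and 3′ scores of 5.78 to 11.2 with a median of 7.99; the tested members without a call had medians of 9.09 and 8.87. Their median length was 262 nt against 390.5 nt. Across the member introns of the uninduced pool, coSE had a Spearman's rho of 0.293 with the 3′ score, 0.131 with the 5′ score and 0.243 with GC content over 103 introns, and 0.140 with length over 109. Induced, rho was 0.109, -0.178 and 0.302 over 94 introns, and 0.0867 with length over 95. Over all introns the values were 0.372 and 0.383 for length, -0.0928 and -0.128 for GC content, 0.112 and 0.0822 for the 3′ score and 0.0468 and 0.0583 for the 5′ score. These are descriptions across introns, which share reads within a gene.

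Introns that host a snoRNA were common in the family, 13 of 113 (11.5%) against 0.327% of all introns tabulated and 18.1% of large-subunit introns. Their uninduced coSE ranged from 0.222 (Rpsa intron 2) to 0.991 (Rps16 intron 2), with a median of 0.885 over 12 introns against 0.972 over the 97 without one. In the induced pool the medians were 0.920 over 9 and 0.936 over 86. The 9 host introns with at least 10 reads in both pools had an uninduced median of 0.954, so on the same introns the induced median was the lower. Of the 13, 3 lie in Rps12 and 3 in Rpsa. Those of Rps3, Rps16 and Rps20 were all above 0.95 in the uninduced pool: Rps3 intron 1 (Snord15a) was spliced in 292 of 295 uninduced and 96 of 99 induced reads. The 6 host introns of Rps12 and Rpsa were the lowest of the 13 in the uninduced pool.

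Related genes were read for comparison. The large-subunit ribosomal protein genes, 216 introns of 49 genes, had median coSE values of 0.956 uninduced and 0.926 induced; of 158 introns tested 10 in 7 genes fell and none rose (6.33%), with a median difference of -0.0301. Their smallest adjusted p was at Rpl41 intron 2, spliced in 555 of 591 and 83 of 115 reads (adjusted p 3.55e-07). Among the 3 small-subunit genes outside the naming rule, 3 of 11 tested introns fell, all in Rack1, a scaffold protein on the head of the subunit: intron 1 was spliced in 120 of 129 uninduced and 15 of 32 induced reads (adjusted p 1.24e-05). Rps3a1 intron 5 was spliced in 169 of 173 and 144 of 144 reads. Of the other genes with terminal oligopyrimidine messages, 9 of 65 introns fell, in Eef1a1 and Eef2, which encode translation elongation factors, and none rose; at a minimum of 20 reads 12 of 37 were called lower (32.4%). The large-subunit list had 11 of 114 called lower at that minimum (9.65%). Of the 40S assembly factors, 343 introns of 30 genes, only 12 introns of 2 genes could be tested, so the list says little about the class. None of the 12 passed, against 1 of 10 at a minimum of 20 reads. Nop56 intron 10, in a core box C/D snoRNP protein gene, was the 1 intron with an unadjusted p under 0.05, with 46 of 48 and 14 of 22 reads spliced (adjusted p 0.0580). The difference between these lists was not tested.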

How the data were processed

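Each condition of the deposited tables is 1 pool of long-read samples; which runs were added together is not given in the sources used here, and 12 of the 20 samples were not analysed. Spliced, unspliced and intermediate reads are raw counts per intron, per the file headers. NIC is a deposited fraction, equal to intermediates over intermediates plus spliced reads in 100% of lines. GC content is a deposited percent, taken as that of the intron, and splice site strength a deposited score; the scoring program is not given in the sources used here. The submitters' processing notes name cutadapt, minimap2, SAMtools, bedtools and Bowtie and the builds mm10 and dm3, without roles.

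Introns were placed on GENCODE release M21 by adding 2 to the start and taking 1 from the end; all 113 member introns matched, and introns are numbered in the direction of transcription. Tests were two-sided Fisher's exact tests (SciPy 1.17.1, Python 3.11.15), adjusted by Benjamini-Hochberg over the whole table, threshold 0.05. The coSE test had a minimum of 10 reads in both pools and was checked on simulated counts. The NIC test had no minimum of reads. Intervals are Wilson or exact Poisson, at 95%, and a count of 0 allows 3 counts. Introns named in full were those past the threshold, the 5 lowest and 3 deepest highest coSE values per pool, those with 5 or more intermediates, and the genes with most and fewest reads; any other was chosen after its values were seen. Members and lists were chosen with earlier results of these data known. Some members count in the totals but are not reported by name here, and are left out of plots that name genes.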

Additional observations from a re-analysis of the deposited data

How the results depend on the processing

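The count of 11 introns with a lower coSE was 9 at a minimum of 20 reads, 15 with a chi-square test and 10 with the uninduced reads thinned; it was 7 without a minimum, where many more introns enter the adjustment, and 3 among introns present in every spanning transcript, where fewer introns are tested. No alternative gave a rise. Of these settings only thinning, a single random draw, changed the counts of an intron and so could change a direction. It reversed none of the 11. Rps12 intron 5 and Rps28 intron 3 had under 20 induced reads and could not be tested at that minimum. Over the whole table the lower and higher calls, 55 and 16 of 4403, were 55 and 13 of 1330 at 20 reads, 79 and 20 of 4403 with the chi-square test, 42 and 9 of 3360 with thinned reads, 30 and 6 of 42074 without a minimum and 27 and 4 of 2806 among introns of every spanning transcript. With reads added together the family's coSE was 0.963 uninduced and 0.912 induced without Rps19. The uninduced share of intermediates was 0.594% without Rps14. The induced share was 1.66% as a mean over introns, which gives every intron the same weight whatever its depth. Among them were Rps14 intron 4, at 0.357 on 28 induced reads, and Rps12 intron 4, at 0.2 on 5. No paired analysis was possible because the deposited counts are pooled over the runs of a condition, and for the same reason no replicate could be left out.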
